A study of Mus musculus with 6 samples.

Results

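The genes examined here build the peroxisome or encode its enzymes and membrane transporters. A set of 35 such genes was taken by name, 12 of them peroxins (Pex genes) and 23 enzymes, transporters and membrane proteins, and their probes were found through RefSeq transcript names. All 35 had a probe, 50 probes in all, and 34 were bright enough to be tested, of 17135 genes tested and 23785 genes with a probe. Whole kidneys of C57BL/6J mice killed at 32 weeks were profiled on 6 Agilent 1-colour arrays, 3 labelled WT and 3 labelled Pck1-CKO. The Pck1-CKO mice were Pck1 flox/flox with a γGT-Cre transgene (tg/+), which directs deletion of Pck1, the gene of cytosolic phosphoenolpyruvate carboxykinase, to the renal proximal tubule. Control littermates, matched for age and sex, are described as Pck1 flox/flox, Pck1 flox/+ or Pck1 flox/+ with γGT-Cre tg/+, and the genotype behind each WT array is not stated. Other cells of the kidney keep Pck1 by design, and the whole organ was used, so a difference may lie in any cell type. Fewer cells of a type and less RNA per cell cannot be told apart.

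Peroxisomes are single-membrane organelles that shorten very long and branched fatty acids, begin ether lipid synthesis, oxidise D-amino acids and 2-hydroxy acids, and break down the hydrogen peroxide these oxidases make. Their matrix enzymes are made in the cytosol and imported fully folded by shuttling receptors, which are pulled back out by a ubiquitin ligase and an ATPase complex. In the kidney they are abundant in the proximal tubule. Many of their genes can be induced by the fatty acid sensor PPAR alpha, a nuclear receptor that binds DNA with RXR.

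The peroxisome genes passed the test about as often as other genes did. Of 34 tested, 1 was higher (Pex10) and 1 lower (Hacl1) in the arrays labelled Pck1-CKO at a limma adjusted p under 0.05, that is 5.88%, against 8.04% of all tested genes (4.34% higher and 3.7% lower). Before adjustment p was under 0.05 for 8 members, or 23.5%, against 31.2% of all tested genes. The groups did not overlap for 12 members, 6 higher and 6 lower, or 35.3%, against 38.3% of all tested genes (21.9% higher and 16.4% lower). These shares lay near the background, and a gene that did not pass is not shown to be the same in both genotypes. The median log2 change over the members was 0.018, with 0.0091 over all tested genes, and quantile normalization turned its sign (-0.00088). The median absolute log2 change was 0.065, against 0.12 over all tested genes. For 24 of the 34 members (70.6%) the absolute log2 change was under 0.1, as for 43.3% of all tested genes. The share was 57.7% for peroxisome genes outside the set, 55.6% for PPAR alpha targets outside it and 40% for proximal tubule markers. All 34 members were well above background on every array, which was not required of all tested genes. Their median SE was 0.056, against 0.068, and the part of brightness in the contrast was not tested. The 95% interval of the change, unadjusted, lay within 0.25 of 0 on the log2 scale for 19 members and within 0.5 of 0 for 31.

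**Figure D1:**
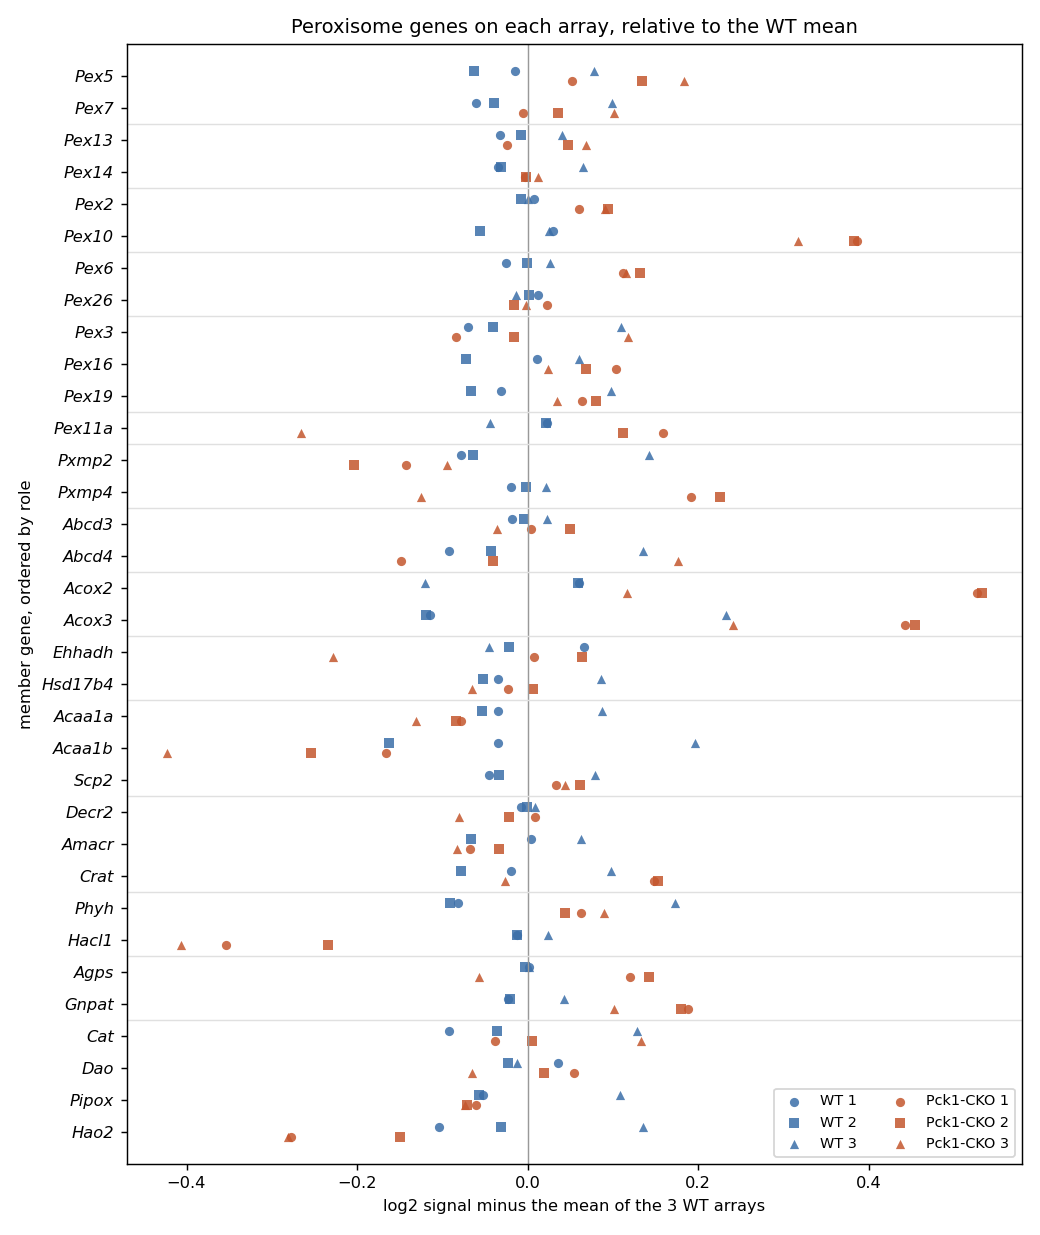
Log2 signal of the 34 tested peroxisome genes on each of 6 arrays, as the difference from the mean of the 3 WT arrays (x axis, log2), with genes on the y axis in order of role and grey lines between roles; blue points are WT arrays and orange points Pck1-CKO arrays. Most genes lie close to 0 in both groups, and Pex10 and Hacl1 are the 2 that passed the test.

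**Figure D2:**
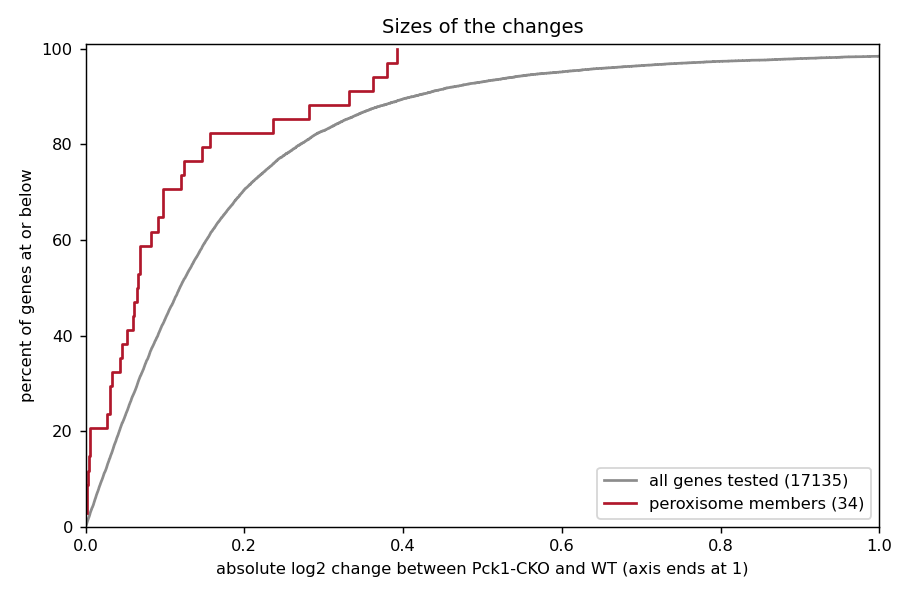
Cumulative percent of genes (y axis) by absolute log2 change between Pck1-CKO and WT (x axis), for the 34 tested members and all 17135 tested genes. The member curve rises faster, with 70.6% of members under 0.1 against 43.3% of all tested genes. All 34 members were well above background on every array, which was not required of all tested genes.

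Several measures set the frame for these values. Between 37118 and 38707 of 56605 probes lay well above background on an array, and with 3 arrays per label precision is limited by their number. All arrays were on 1 slide, WT in 1 of its rows and Pck1-CKO in the other, and row and genotype cannot be told apart. Whether each array stands for its own mouse is not stated, and the p-values refer to the spread among these 6 arrays, which may be technical. WT 1 and WT 2 were closer to each other (median absolute log2 difference 0.065 over all tested genes) than either was to WT 3 (0.11 and 0.10), and Pck1-CKO 1 and 2 (0.064) were closer than either was to Pck1-CKO 3 (0.10 and 0.086). The probe for Pck1 read 6.29, 6.32 and 5.63 (log2) in WT, with 6.44, 6.60 and 6.90 in Pck1-CKO (log2 change 0.56 ± 0.22 SE, n = 3 per group, limma adjusted p = 0.152). For Pck1 every Pck1-CKO array lay above every WT array. Where this probe lies with respect to the floxed exons is not stated, so it is no check of the deletion, and directions are those of the labels. Markers of the kidney were present, with all 15 proximal tubule genes and all 8 genes of other segments bright enough to test. Of the other segments' genes 1 was higher and 4 were lower, or 62.5%, against 8.04% of all tested genes. All 8 had an unadjusted limma p under 0.05 (against 31.2%) and groups that did not overlap (against 38.3%). Of the proximal tubule genes 1 was higher and 0 were lower, or 6.67%. The summed log2 signal of the proximal tubule genes ran from 10.90 to 10.96 in WT and from 10.97 to 11.03 in Pck1-CKO. Brown fat markers were higher in 5 of 6 genes (summed log2 signal 4.24 to 4.42 in WT, 5.64 to 5.76 in Pck1-CKO), and adipocyte markers in 2 of 8 (3.87 to 4.93, and 6.23 to 6.95). Before adjustment limma p was under 0.05 for 7 of the 8 adipocyte markers (87.5%), against 31.2% of all tested genes. Their median log2 change was 2.89. Red cell markers, with 0 of 4 called by limma and 3 at an unadjusted p under 0.05, ran from 8.85 to 9.20 and from 9.19 to 9.54. Of 7 genes listed as hepatocyte markers 2 were higher (Ttr and Serpina1a) and 1 lower (Apob) (7.63 to 7.99, and 8.07 to 8.45). Whether these 7 genes stand for liver cells in the samples was not tested. Of 7 adrenal cortex markers 4 were bright enough to test and 0 were called by limma, 1 having an unadjusted p under 0.05 (-0.33 to -0.24, and -0.46 to -0.36), and Cyp11a1, Cyp11b1 and Cyp11b2 were not. The part of these cell types in the results on peroxisome genes was not tested.

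Promoters of members are shown because PPAR alpha can induce many of these genes. The RefSeq promoter table (GRCm38.p6, 250 bases before to 50 after a gene's start) held 27 of the 35 members. It was searched on both strands for the repeat that PPAR alpha and RXR bind, 2 copies of AGGTCA with any 1 base (N) between them, with up to 2 mismatches. A match was found in 2 of 27 members (7.41%), Cat and Acox2, against 4.4% of all 27025 genes in the table, and with at most 1 mismatch in 0 of 27, against 0.644%. Capitals mark the match in the lines for Cat (chr2:103485325-103485377, minus strand, the match starting at -204 from the start site) and Acox2 (chr14:8258818-8258830, minus strand, just after the second of its listed start sites). The 250 bases before the start site of the members that passed the test, Pex10 (chr4:155066780-155067029, plus strand) and Hacl1 (chr14:31640966-31641215, minus strand), hold no match and so carry no capitals.
Cat: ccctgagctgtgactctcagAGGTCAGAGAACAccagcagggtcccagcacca
Acox2: AGGACAGAGGTGA
Pex10: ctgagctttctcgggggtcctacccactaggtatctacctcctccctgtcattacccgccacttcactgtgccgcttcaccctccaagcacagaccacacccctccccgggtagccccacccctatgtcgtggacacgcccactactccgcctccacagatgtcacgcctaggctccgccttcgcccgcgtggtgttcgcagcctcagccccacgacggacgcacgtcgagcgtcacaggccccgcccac
Hacl1: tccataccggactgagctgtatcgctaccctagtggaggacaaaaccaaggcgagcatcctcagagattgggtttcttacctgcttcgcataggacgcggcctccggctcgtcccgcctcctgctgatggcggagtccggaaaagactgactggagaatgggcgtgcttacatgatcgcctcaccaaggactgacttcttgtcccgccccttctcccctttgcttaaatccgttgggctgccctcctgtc
A match is a description of these letters, and none says only that they are not in this window.

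The peroxins were described first. All 12 were tested by limma, 1 was higher and 0 were lower, or 8.33% called against 8.04% of all tested genes, with a median log2 change of 0.052. Before adjustment 2 of them (16.7%) had p under 0.05, against 31.2% of all tested genes. All 12 changes were positive, from 0.0017 to 0.36, as were 8947 of 17135 over all tested genes, and 9 of the 12 were under 0.1. The groups did not overlap for 3 of the 12 (25%), against 38.3% of all tested genes. The sign was not stable for all of them: Pex13, Pex14, Pex26, Pex3 and Pex11a turned negative under at least 1 of 17 alternatives.

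Pex10 encodes a RING protein of the ubiquitin ligase that marks import receptors for removal from the membrane. Its log2 signal was -0.33, -0.41 and -0.33 in WT 1 to 3, with 0.028, 0.025 and -0.041 in Pck1-CKO 1 to 3. Every Pck1-CKO array lay above every WT array, with little spread in either group. Pex10 rose by 0.36 ± 0.045 on the log2 scale (SE, n = 3 per group, limma adjusted p = 0.0221), or 1.29-fold. It did not pass without WT 1 (adjusted p = 0.0794), WT 2 (0.0815), Pck1-CKO 1 (0.0863) or Pck1-CKO 2 (0.106), when the log2 change lay between 0.33 and 0.38, and over all alternatives the adjusted p ran from 0.0044 to 0.106. Pex2, another RING subunit of the same ligase, read 2.86, 2.85 and 2.85 in WT, with 2.91, 2.95 and 2.94 in Pck1-CKO. Its groups did not overlap either, but the log2 change of 0.082 (95% interval -0.0056 to 0.17) did not pass (adjusted p = 0.182) and was 0.046 under quantile normalization.

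The receptors that carry cargo into the organelle showed no called difference. Pex5, which recognises the C-terminal targeting signal, read 1.86, 1.81 and 1.96 in WT, with 1.93, 2.01 and 2.06 in Pck1-CKO. WT 3 lay above Pck1-CKO 1, so the groups overlapped, and the log2 change was 0.12 (95% interval -0.020 to 0.27, adjusted p = 0.21). Pex7, the receptor of the N-terminal signal, had a log2 change of 0.044 (-0.10 to 0.19). In the docking complex, Pex13 read 2.44, 2.47 and 2.51 in WT, with 2.45, 2.52 and 2.54 in Pck1-CKO, and Pex14 had a log2 change of 0.0024 (-0.11 to 0.11). The unadjusted 95% intervals of both docking genes reached no further than 0.14 from 0 on the log2 scale. They refer to the spread among these arrays and do not bound the difference between genotypes.

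Pex6 is an ATPase that pulls used receptors out of the membrane, and Pex26 anchors it there. Pex6 read 2.49, 2.52 and 2.55 in WT, with 2.63, 2.65 and 2.64 in Pck1-CKO. The groups did not overlap, and the log2 change of 0.12 ± 0.037 (95% interval 0.030 to 0.21) did not pass (adjusted p = 0.094). A further Pex6 probe, dimmer, had a log2 change of -0.035 with overlapping groups, so the probes of this gene disagree, and their mean gave 0.043. Pex6 passed under 1 of 17 alternatives, array weights (limma adjusted p = 0.0206). Pex26 had a log2 change of 0.0018 (-0.087 to 0.090).

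Pex3, Pex16 and Pex19 insert proteins into the peroxisomal membrane, and Pex11a promotes elongation and division. Pex16 read 2.64, 2.56 and 2.69 in WT, with 2.73, 2.70 and 2.65 in Pck1-CKO, and the groups overlapped (log2 change 0.066, 95% interval -0.060 to 0.19). Pex19 differed by 0.060 (-0.076 to 0.20) and Pex3 by 0.0059 (-0.18 to 0.19) on the log2 scale. Pex11a read 4.90, 4.90 and 4.83 in WT, with 5.04, 4.99 and 4.61 in Pck1-CKO. The array Pck1-CKO 3 lay below all WT arrays and the other Pck1-CKO arrays above them, so the mean log2 change of 0.0017 (-0.29 to 0.29) came from values on both sides of WT.

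**Figure D3:**
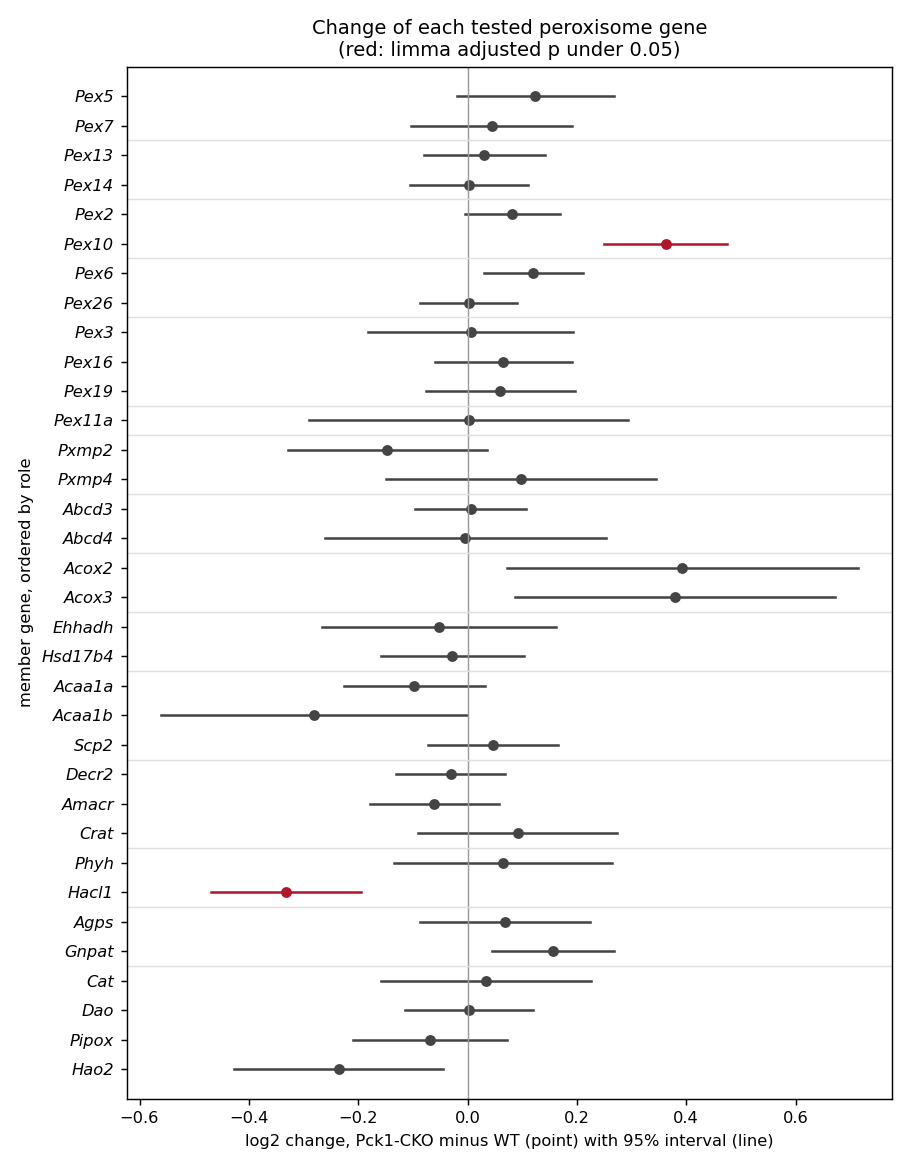
Log2 change, Pck1-CKO minus WT (x axis), of each of the 34 tested members (y axis, in order of role), as a point with its unadjusted 95% interval from limma; red marks a limma adjusted p under 0.05. Pex10 at 0.36 and Hacl1 at -0.33 are red, while Acox2 and Acox3 have changes as large with wider intervals.

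The enzymes, transporters and membrane proteins had 22 tested genes, of which limma called 0 higher and 1 lower, or 4.55% against 8.04% of all tested genes. Before adjustment 6 of them (27.3%) had p under 0.05, against 31.2%. Their median log2 change was -0.00073, with 11 positive and 11 negative changes. Groups did not overlap for 9 of them, 3 higher and 6 lower, or 40.9%, against 38.3% of all tested genes.

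Hacl1, the lyase that removes a formyl group in alpha-oxidation of branched and 2-hydroxy fatty acids, fell. Its log2 signal was 3.64, 3.64 and 3.67 in WT, with 3.30, 3.42 and 3.24 in Pck1-CKO, and every Pck1-CKO array lay below every WT array. The change in Hacl1 was -0.33 ± 0.056 on the log2 scale (SE, n = 3 per group, limma adjusted p = 0.0335), which puts WT 1.26-fold above Pck1-CKO. A dimmer Hacl1 probe, with groups that did not overlap, had a log2 change of -0.16, and the mean over both probes gave -0.24 with adjusted p = 0.055. The call was lost without WT 1 (adjusted p = 0.105), WT 2 (0.105), WT 3 (0.054), Pck1-CKO 1 (0.105) or Pck1-CKO 2 (0.0805), with log2 changes of -0.38 to -0.32, and the adjusted p ran from 0.0077 to 0.105 over all alternatives. Phyh, the phytanoyl-CoA hydroxylase that acts before Hacl1 in the same pathway, read 6.09, 6.08 and 6.34 in WT, with 6.23, 6.21 and 6.26 in Pck1-CKO. For Phyh the groups overlapped and the log2 change was 0.065 (95% interval -0.13 to 0.26).

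The acyl-CoA oxidases of branched substrates had the largest positive changes among the members, and neither passed. Acox2, which acts on bile acid precursors and branched fatty acids, read 5.07, 5.07 and 4.89 in WT, with 5.54, 5.54 and 5.13 in Pck1-CKO. Every Pck1-CKO array lay above WT, and Pck1-CKO 3 only by a small margin. Its log2 change was 0.39 ± 0.13 (95% interval 0.072 to 0.71, adjusted p = 0.109), and a dimmer probe gave 0.39 with groups that did not overlap. Acox3, the pristanoyl-CoA oxidase, read 4.14, 4.14 and 4.49 in WT, with 4.70, 4.71 and 4.50 in Pck1-CKO. WT 3 nearly reached Pck1-CKO 3, and the log2 change was 0.38 ± 0.12 (0.087 to 0.67, adjusted p = 0.0974). Of 2 further Acox3 probes, one differed by 0.22 without overlap and the other by -0.049 with overlap, and the mean over its probes gave 0.18. Acox2 passed without Pck1-CKO 3 (log2 change 0.53, adjusted p = 0.028) and Acox3 without WT 3 (0.50, adjusted p = 0.0422). Over all alternatives the adjusted p ran from 0.0174 to 0.284 for Acox2 and from 0.0094 to 0.264 for Acox3, and each passed under 4 of 17.

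Of the enzymes after the oxidases, the bifunctional enzymes had overlapping groups and both Acaa1 thiolases had lower values in Pck1-CKO that did not pass. Ehhadh, the L-bifunctional enzyme and a classical PPAR alpha target, read 5.64, 5.55 and 5.53 in WT, with 5.58, 5.64 and 5.35 in Pck1-CKO. The groups overlapped, and the log2 change was -0.052 (95% interval -0.27 to 0.16). Hsd17b4, the D-bifunctional enzyme, differed by -0.028 (-0.16 to 0.10). The thiolases Acaa1a and Acaa1b carry out the last step and are close paralogs whose probes may read each other's transcripts, so each value is uncertain. Acaa1b read 4.53, 4.40 and 4.76 in WT, with 4.39, 4.31 and 4.14 in Pck1-CKO. The groups did not overlap, with WT 2 just above Pck1-CKO 1, and the log2 change was -0.28 ± 0.11 (-0.56 to -0.0018, adjusted p = 0.158). It was -0.18 without WT 3, -0.17 with array weights and -0.11 with WT 3 and Pck1-CKO 3 both left out. Over all alternatives the Acaa1b change ran from -0.36 to -0.11, with limma adjusted p of 0.0836 to 0.307. Acaa1a differed by -0.097 (-0.23 to 0.031; -0.054 without WT 3), also without overlap, and Scp2, the thiolase of branched chains, by 0.046 (-0.073 to 0.17).

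Auxiliary enzymes prepare unusual acyl chains or release products. Amacr, the racemase that makes branched acyl-CoAs usable for oxidation, read 6.65, 6.58 and 6.70 in WT, with 6.57, 6.61 and 6.56 in Pck1-CKO (log2 change -0.061, 95% interval -0.18 to 0.057). Decr2, the dienoyl-CoA reductase, differed by -0.031 (-0.13 to 0.069) and Crat, carnitine acetyltransferase, by 0.091 (-0.091 to 0.27). For these 3 genes the groups overlapped.

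Of the ABCD family, which moves acyl-CoAs across the peroxisomal membrane, Abcd3 read 6.04, 6.05 and 6.08 in WT, with 6.06, 6.10 and 6.02 in Pck1-CKO. Its groups overlapped, with a log2 change of 0.0058 (95% interval -0.096 to 0.11). Abcd4, a family member that works in lysosomal cobalamin transport, differed by -0.0041 (-0.26 to 0.25). Abcd2 was not tested, since its probe was well above background on 1 array, Pck1-CKO 3 (log2 signal -5.07, against -7.50 to -6.74 on the other arrays). That array also had the highest adipocyte marker signal, 6.95, and the part of fat in the Abcd2 signal was not tested. Among membrane proteins, the channel protein gene Pxmp2 read 4.79, 4.81 and 5.02 in WT, with 4.73, 4.67 and 4.78 in Pck1-CKO. Its groups did not overlap by a narrow margin (log2 change -0.15, 95% interval -0.33 to 0.035, adjusted p = 0.232), and the change was -0.076 without WT 3. Pxmp4 differed by 0.098 (-0.15 to 0.34).

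Gnpat catalyses the first step of ether lipid synthesis. It read 3.74, 3.75 and 3.81 in WT, with 3.95, 3.95 and 3.87 in Pck1-CKO, and every Pck1-CKO array lay above WT. The log2 change was 0.16 ± 0.045 (95% interval 0.046 to 0.27, adjusted p = 0.0833), and further probes differed by 0.16 and 0.24, both without overlap. Gnpat passed under 3 of 17 alternatives, and over all of them the limma adjusted p ran from 0.0125 to 0.25. Agps, which exchanges the acyl for an alkyl chain in the next step, differed by 0.069 (-0.087 to 0.22) with overlapping groups.

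The oxidases that make hydrogen peroxide, and catalase, which removes it, had no change called by limma. Before adjustment 1 of these 4, Hao2, had p under 0.05, or 25%, against 31.2% of all tested genes. Hao2, an oxidase of 2-hydroxy acids prominent in kidney, read 4.23, 4.31 and 4.47 in WT, with 4.06, 4.19 and 4.06 in Pck1-CKO. Each Pck1-CKO value lay below each WT value, and the log2 change of -0.24 ± 0.077 (95% interval -0.43 to -0.045) did not pass (adjusted p = 0.107). Over all alternatives the Hao2 change ran from -0.29 to -0.15, the latter with array weights. Hao2 passed under 1 of 17, a mean-variance trend (limma adjusted p = 0.0481). Dao, D-amino acid oxidase, differed by 0.0026 (-0.11 to 0.12). Cat differed by 0.033 (-0.16 to 0.23). Pipox, the oxidase of sarcosine and pipecolic acid, differed by -0.068 (-0.21 to 0.072), with groups that did not overlap by a narrow margin.

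Other probes of the members were used as a check of the measurement within the same RNA. Of 15 further tested probes, for 13 genes, 12 had a change of the same sign as the probe that stood for the gene. The exceptions were single probes of Acox3, Pex6 and Pex26.

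For the members, WT 3 stood about as far from the other WT arrays as arrays of different labels stood from each other. Over the members the median absolute log2 difference was 0.018 between WT 1 and WT 2, 0.11 between WT 1 and WT 3, and 0.13 between WT 2 and WT 3. Between labels it ran from 0.069 (WT 1 and Pck1-CKO 1) to 0.12 (WT 3 and Pck1-CKO 2). WT 3 was the highest of the WT arrays for 27 of 34 members (79.4%), against 44.3% of all tested genes. Pck1-CKO 3 was the lowest of its group for 21 of 34 (61.8%), against 35.3% of all tested genes. Pck1-CKO 3 was also the highest of its group for 9 members (26.5%), against 42.3% of all tested genes. Relative to the mean of the other 2 arrays of its label, Pck1-CKO 3 was lowest for Acox2 (-0.41 on the log2 scale), Pex11a (-0.40), Pxmp4 (-0.33), Ehhadh (-0.26), Acaa1b (-0.21) and Acox3 (-0.21). It was highest for Abcd4 (0.27), Pex3 (0.17) and Cat (0.15). On the same array all 18 tested PPAR alpha targets were lower than the mean of Pck1-CKO 1 and 2, with a median of -0.31, against 45.8% of all tested genes and a median of 0.013, from Cyp4a14 (-1.77) and Creb3l3 (-1.23) upward. All 7 genes of the hepatocyte marker list were also lower there, with a median of -0.26. All 7 were higher on WT 3 than the mean of WT 1 and WT 2, with a median of 0.30. Whether they stand for liver cells was not tested. On Pck1-CKO 3, 1 of 8 adipocyte markers (median 0.74) and 0 of 4 red cell markers (median 0.30) were lower. The part of these cell types in the pattern was not tested. The median over the members was -0.054 for Pck1-CKO 3 and 0.096 for WT 3. Similar lists leaned the same way. WT 3 was above the mean of WT 1 and WT 2 for 85.3% of members, against 55.2% of all tested genes. The share was 69.2% for peroxisome genes outside the set and 73.3% for proximal tubule markers. Pck1-CKO 3 was below the mean of Pck1-CKO 1 and 2 for 70.6% of members, 71.2% of the outside genes and 60% of these markers. Left out together, WT 3 and Pck1-CKO 3 took the count of members to 5 higher and 0 lower. This alternative was chosen after seeing the data. It rests on 2 arrays per label that resemble each other closely, and over all genes it gave 1304 higher and 1154 lower, against 743 and 634 with all arrays.

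**Figure D4:**
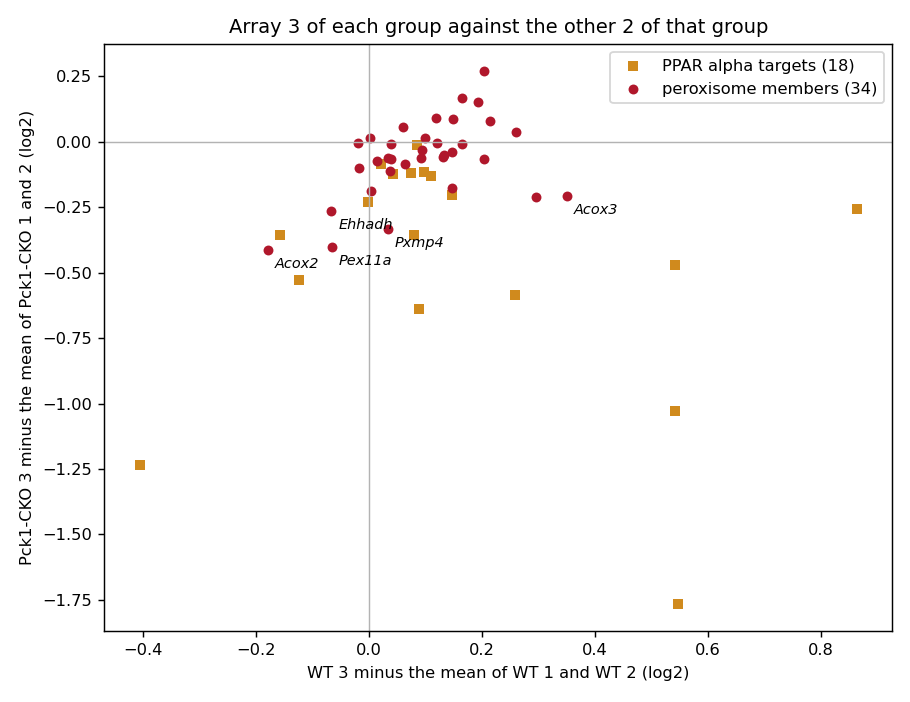
Each point is a gene, with WT 3 minus the mean of WT 1 and WT 2 on the x axis and Pck1-CKO 3 minus the mean of Pck1-CKO 1 and 2 on the y axis (both log2); circles are the 34 tested members and squares the 18 tested PPAR alpha targets. All squares lie below 0 on the y axis, as do 24 of the 34 circles (70.6%, against 45.8% of all tested genes). Acox2, Pex11a, Pxmp4 and Ehhadh are the lowest circles, and Abcd4, Pex3 and Cat the highest.

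Peroxisome genes outside the set were read from a separate list of 57 genes, of which 52 were tested. Of these 1 was higher and 3 were lower, or 7.69%, against 8.04% of all tested genes, and the median log2 change was 0.0083. Ddo, D-aspartate oxidase, read 1.60, 1.70 and 1.69 in WT, with 1.96, 1.97 and 1.98 in Pck1-CKO, and rose by 0.31 ± 0.042 (limma adjusted p = 0.0255). Acot3, an acyl-CoA thioesterase of peroxisomes, read 1.89, 1.85 and 2.15 in WT, with 1.18, 1.13 and 0.82 in Pck1-CKO, a log2 change of -0.92 ± 0.13 (adjusted p = 0.0255). The related Acot4 differed by -0.29 ± 0.055 (adjusted p = 0.0402). Acot3 and Acot4 belong to a family of close paralogs, so their values are uncertain in the same way. Baat, which joins bile acids to amino acids, was well above background on every WT array and on 0 of 3 Pck1-CKO arrays. It was at least 1.51-fold higher in WT (adjusted p = 0.02), a bound from the lowest signal well above background. Without WT 1, WT 2, Pck1-CKO 1 or Pck1-CKO 2 each of these 4 calls was lost, with adjusted p of 0.0848 to 0.118 for Ddo, 0.0793 to 0.1 for Acot3, 0.106 to 0.124 for Acot4 and 0.0695 to 0.0808 for Baat. Acot4 was also lost without WT 3 (0.0654), and the mean over the probes of Ddo gave a log2 change of 0.13 (adjusted p = 0.182). Leaving out any of the former 4 arrays took the calls over all genes to between 16 and 39 higher and between 9 and 31 lower.

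PPAR alpha itself did not pass. Ppara read 3.76, 3.77 and 4.13 in WT, with 3.60, 3.63 and 3.72 in Pck1-CKO. The groups did not overlap, and the log2 change was -0.23 ± 0.11 (adjusted p = 0.215), or -0.11 without WT 3. Of 8 regulators tested, 1 passed, or 12.5%, against 8.04% of all tested genes. Before adjustment limma p was under 0.05 for 4 of the 8 (50%), against 31.2% of all tested genes. The groups did not overlap for 6 (75%), 4 higher and 2 lower, against 38.3%. The 1 that passed was Pparg, the receptor that drives fat cell differentiation. It read -0.61, -0.54 and -0.56 in WT, with 0.36, 0.24 and 0.63 in Pck1-CKO (log2 change 0.98 ± 0.10, adjusted p = 0.0154), and was not called without WT 1 (0.066), WT 2 (0.0735), Pck1-CKO 1 (0.0702) or Pck1-CKO 2 (0.058). Adipocyte markers were higher on the same arrays, as given above, and their part in this value was not tested.

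PPAR alpha targets outside the set moved further than the members in a few cases. Of 19 listed, 18 were tested, 1 was higher and 2 were lower, or 16.7%, against 8.04% of all tested genes. Before adjustment limma p was under 0.05 for 5 of the 18 (27.8%), against 31.2% of all tested genes. The groups did not overlap for 8 (44.4%), 1 higher and 7 lower, against 38.3%. The median log2 change was -0.025. Fabp1, a fatty acid binding protein, differed by -1.35 ± 0.29 (limma adjusted p = 0.0495) and Creb3l3, a transcription factor of fasting, by -1.77 ± 0.37 (adjusted p = 0.0469). Cd36, a fatty acid transporter also abundant in fat, rose by 0.50 ± 0.073 (adjusted p = 0.0283). All 3 calls were lost without WT 1, WT 2, Pck1-CKO 1 or Pck1-CKO 2, with adjusted p of 0.0917 to 0.118 for Cd36, 0.0901 to 0.137 for Creb3l3 and 0.0962 to 0.163 for Fabp1. Without WT 3, Creb3l3 (0.0664) and Fabp1 (0.0506) were lost, and without Pck1-CKO 3, Fabp1 (0.0904). The members Ehhadh, Pex11a, Acaa1a, Acaa1b and Cat were named here as targets by hand, and other members may be targets too. None of these named members passed the test, and their log2 changes lay between -0.28 and 0.033. The difference between these targets and the others was not tested.

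**Figure D5:**
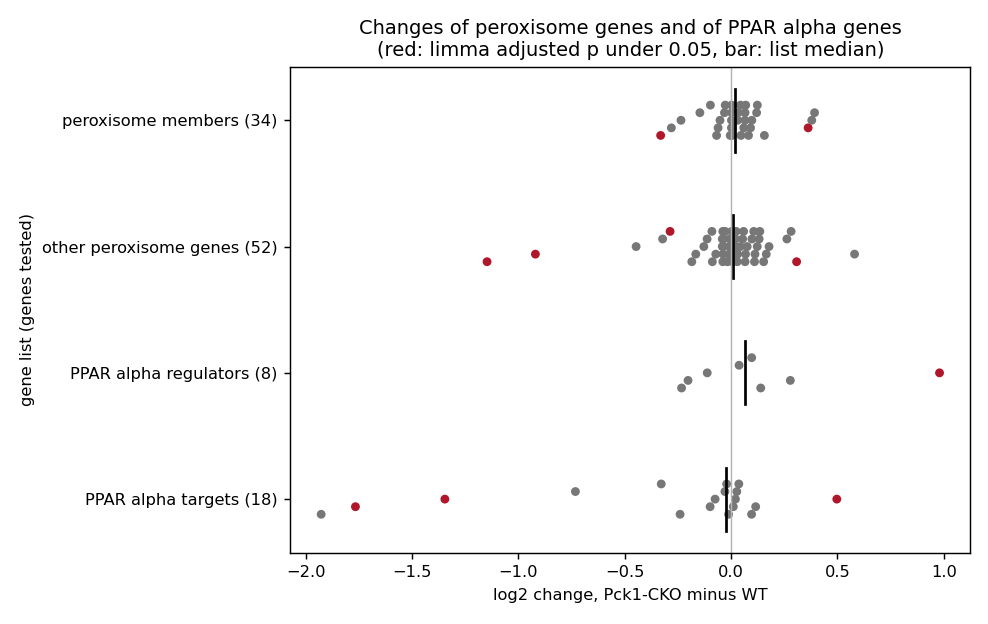
Log2 change, Pck1-CKO minus WT (x axis), of each tested gene in 4 lists (y axis, number tested in brackets); red points have a limma adjusted p under 0.05 and black bars are list medians. The members span -0.33 to 0.39, while the PPAR alpha targets reach -1.93, and the lowest of them that passed the test is Creb3l3 at -1.77.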

How the data were processed

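Total RNA of whole kidneys was labelled with Cy3, 1 array per sample. Agilent Feature Extraction 10.7.1.1 is named in the submitters' processing notes and the deposited files are, per the file headers, its output, and the processed signal is a linear intensity, background-subtracted and detrended. The deposited series matrix holds the same signal divided by 1 factor per array. Set against the scanner values its scale and direction are settled, and no gene centring was applied; medians by column were 0.104, 0.103 and 0.102 (WT) and 0.099, 0.097 and 0.098 (Pck1-CKO). Which software made it is not stated.

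Outlier-flagged spots (46 to 94 per array) were dropped. Processed signals were put on a log2 scale, averaged over a probe's spots and set relative to the array's own 75th percentile (529 to 583 in linear units), so levels are log2 values relative to it and levels of different probes are not compared. Probes were named through RefSeq transcripts (GRCm38.p6 table, 34675 of 56605 probes). The scanner files use another build, so promoter coordinates are those of the RefSeq table. A gene was tested on its brightest probe among those that at least 3 of 6 arrays measured well above background. Genotypes were compared with limma 3.58.1 (lmFit, eBayes; R 4.3.3). Its 2-sided p-values, from a fit with no covariate, were adjusted by Benjamini-Hochberg over 17135 genes, with a threshold of 0.05. "Higher" and "lower" counts are calls by this test. Intervals are limma's, unadjusted. The procedure was tested on simulated data.

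Members, lists and tests were chosen with earlier results of these data known, and lists got no test of their own. Values on every array are given for members that passed, for the member of lowest p in each role and for others that help to read them. In the lists outside the set, genes that passed are named, with Pck1 and Ppara. Some genes of these lists are not reported here and were left out of their counts and medians. Alternatives changed the scaling, the background correction, the dim-probe filter, the choice of probes, the variance model, array weights and flags, used the series matrix, left out arrays or added a replicate block. A planned search of protein targeting signals was not run, since protein sequences were not used here.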

Additional observations from a re-analysis of the deposited data

How the results depend on the processing

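Main counts were 1 member higher and 1 lower, and 743 genes higher and 634 lower over all genes. Without a filter on dim probes they were 0 and 0 for the members and 61 and 81 for all genes. A mean-variance trend gave 4 and 2 members, and 1689 and 1133 genes. Array weights gave 6 members higher, and 3286 and 2614 genes. The mean over probes gave 0 members lower. With WT 3 and Pck1-CKO 3 both left out, chosen after seeing the data, 5 members were higher and 0 lower, with 1304 and 1154 genes. Leaving out 1 array gave 0 to 2 members higher and 0 to 1 lower, 16 to 779 genes higher and 9 to 806 lower. The member median ranged from 0.014 to 0.062 over these, and was -0.00088 under quantile normalization.

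No pairing of arrays by sample number was seen. Correlations of deviations from the group mean were -0.0010, -0.11 and -0.023 between arrays of the same number, and for no number was this the best correlation. With 3 arrays per label this check cannot settle whether arrays were paired. With the number as a replicate block 0 members were higher and 0 lower, and over all genes 3 were higher and 1 lower. Of 32 members that did not pass, 7 passed under at least 1 of 17 alternatives and 21 kept their sign under every one. The cause was not tested. The 95% interval of a member's change reached a median of 0.14 to either side, which limits how small a change could be seen.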
